A study of Mus musculus with 6 samples.

Results

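DNA methyltransferases and Tet enzymes, with the proteins that work beside them, were followed as 9 genes across the transcriptomes of mouse embryonic stem cells (mESCs) grown in 3 media. The genes were Dnmt1, Dnmt3a, Dnmt3b, Dnmt3l, Uhrf1, Tet1, Tet2, Tet3 and Tdg. They were picked by symbol, and not by any measured value, from the 28584 symbols of the deposited expression table, in which all 9 were found. Each passed the filter on low values (at least 1 TPM, the unit scaled for gene length and library size, in at least 2 libraries), as did 18556 genes in all.

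The cells were a single mESC line derived from C57BL/6 x 129S6 blastocysts. They had spent 5 passages on mouse embryonic fibroblast feeders stopped with mitomycin C and were then moved to basic medium with serum and no cytokine (-LIF-ESCs), to the same medium with leukemia inhibitory factor at 1000 U/mL (LIF-ESCs), or to the same medium with oncostatin M at 10 ng/mL (OSM-ESCs). RNA was taken at passage 10 in these media, and 2 libraries were sequenced per group, 6 in all. The question was which expression each cytokine maintained relative to withdrawal, and how OSM-ESCs compared with LIF-ESCs.

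DNA methylation in mammals sits mostly on the cytosine of CpG dinucleotides. Dnmt3a and Dnmt3b place new methyl groups, and Dnmt3l is a catalytically inactive relative that binds and stimulates them and is abundant in early germ cells and pluripotent cells. Dnmt1 copies the pattern after replication, guided to hemimethylated DNA by Uhrf1. Tet1, Tet2 and Tet3 oxidise the methyl group, and Tdg, a DNA glycosylase, cuts out the most oxidised forms so that base excision repair can restore an unmethylated cytosine. Naive mouse pluripotent cells are known for high Tet1 and Tet2, and LIF and OSM both act through gp130 and STAT3. The libraries hold RNA and do not measure DNA methylation.

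The promoters of the genes whose expression moved most are shown first, because CpG is the substrate of these enzymes. The stretches end at the base before the RefSeq start site (GRCm38.p6), or for Tdg 11 bases before it, are free of exons, run 5′ to 3′ on the gene's strand, and carry each CpG in capitals. The Dnmt3l stretch is chr10:78042136-78042286 (+ strand), that of Tet1 is chr10:62887325-62887412 (- strand), that of Tet2 is chr3:133544391-133544640 (- strand) and that of Tdg is chr10:82629588-82629827 (+ strand).
Dnmt3l: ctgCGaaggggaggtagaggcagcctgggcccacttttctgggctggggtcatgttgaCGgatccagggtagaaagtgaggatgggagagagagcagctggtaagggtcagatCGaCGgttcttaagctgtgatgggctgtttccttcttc
Tet1: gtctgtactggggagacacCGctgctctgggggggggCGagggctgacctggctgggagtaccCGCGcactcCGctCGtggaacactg
Tet2: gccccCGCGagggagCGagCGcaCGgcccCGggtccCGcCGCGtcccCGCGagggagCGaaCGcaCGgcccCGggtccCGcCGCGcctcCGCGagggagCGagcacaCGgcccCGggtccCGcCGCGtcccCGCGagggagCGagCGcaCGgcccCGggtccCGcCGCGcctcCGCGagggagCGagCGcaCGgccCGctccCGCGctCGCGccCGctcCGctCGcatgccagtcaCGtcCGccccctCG
Tdg: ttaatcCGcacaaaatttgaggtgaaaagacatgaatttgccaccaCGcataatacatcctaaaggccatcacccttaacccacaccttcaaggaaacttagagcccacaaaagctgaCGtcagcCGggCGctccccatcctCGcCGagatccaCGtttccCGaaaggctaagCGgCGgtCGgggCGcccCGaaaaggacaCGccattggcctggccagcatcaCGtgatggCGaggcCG

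These promoters differed in CpG content. In the whole 250 bases before the start, Dnmt3l held 5 CpG, near the median of 6 over all 32817 RefSeq promoters, whereas Tet2 held 51. Tet1 held 15 and Tdg 19. Among the genes that moved less, Dnmt3a held 40, Dnmt3b 21, Tet3 17, Uhrf1 10 and Dnmt1 7. The RefSeq start of Tet1 lay 11794 bases from the start of its principal GENCODE transcript and that of Tet3 14714 bases, and gene-level values cannot tell which start was used. Both strands were searched for the STAT palindrome TTCNNNGAA, present in 7.0% of all promoters of this length. Of the 9 genes Tdg held it, as TTCAAGGAA at 163 to 155 bases before the start. The E-box CACGTG (6.0% of promoters) was likewise found in Tdg, 28 to 23 bases before the start. The octamer ATGCAAAT (1.6%) and the Esrrb binding motif AAGGTCA (4.1%) were in none of the 9 windows. GC boxes (GGGCGG, 32.7%) were in Dnmt3a (4), Dnmt3b (3), and Uhrf1, Tet1, Tet2 and Tet3 (1 each). Such matches describe the letters and not occupied sites.

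The libraries held 20712941 to 28994417 reads, recovered from the TPM values, and every member was counted at 315 reads or more in every library. Expression was compared by limma on log2(TPM + 1), and a gene was called where its adjusted p was under 0.05 and its log2 fold change at least 1. Both comparisons against -LIF-ESCs use the same 2 control libraries and are therefore not independent. Over all genes tested the median log2 fold change was 0.165 with LIF and 0.182 with OSM relative to -LIF-ESCs, so small rises have to be read against that shift. By adjusted p alone 42.2% of all genes rose and 25.9% fell with LIF, and 42.9% and 25.4% with OSM. Of all genes 13.3% were called higher and 8.09% lower with LIF, and 14.2% and 7.86% with OSM. The summed TPM of 10 pluripotent cell markers was 5152 to 5180 without cytokine, 6814 to 6886 with LIF and 6417 to 6435 with OSM. In each cytokine 8 of them rose and 1, Nanog, fell (log2 fold change -0.58 and -0.73). Nanog was at 435.9 and 430.8 TPM without cytokine, 289.4 and 290.5 with LIF and 270.4 and 251.7 with OSM. The study, unlike these values, reports Nanog as higher with either cytokine, by RNA-seq and at the protein level. The summed TPM of 13 differentiated lineage markers was 2376 to 2400, 55.13 to 55.17 and 60.33 to 66.91, mainly from the keratins Krt8, Krt18 and Krt19. Of the 12 tested, 7 were called lower and 4 higher in each cytokine group, the higher ones being Gata4 (2.01 and 1.58), Gata6 (1.35 and 1.21), Pax6 (1.5 and 1.57) and Sox1 (1.68 and 1.49), all at no more than 7.014 TPM. For 7 primed epiblast markers, all of which fell in each cytokine, it was 150.3 to 150.7, 75.77 to 76.1 and 83.49 to 87.4. For 12 fibroblast markers it was 321.1 to 329.4, 743.6 to 751.7 and 964.7 to 982.2. Of those 12, 11 were higher and 1 (Col5a1) was lower in each cytokine against -LIF-ESCs, and Dcn and Lox were close to 0 without cytokine at no more than 0.07565 and 0.08937 TPM. With libraries rescaled to a common median ratio, 6391 of 18571 genes rose and 6171 fell with LIF, and 6374 and 6165 with OSM. Of the pluripotent cell markers 8 then rose and 2 fell with LIF, and 7 and 2 with OSM. All 7 primed epiblast markers still fell in each, and the fibroblast markers gave 10 and 1 with LIF and 11 and 1 with OSM. The part of these other cells in the values below was not tested, and in such bulk RNA fewer cells of a type and less RNA per cell cannot be told apart.

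Expression split into 3 patterns. Dnmt3l, Tet1 and Tet2 were 5.0 to 10.3 times as high with either cytokine as without it, by TPM ratio, and Tdg was 2.28 and 2.23 times as high. Dnmt1, Uhrf1 and Dnmt3b were slightly higher, Dnmt3a was lower, and Tet3 did not pass the test. With LIF, 4 of the 9 genes were called higher and 0 lower, where 13.3% and 8.09% of all genes tested were called. With OSM the counts were again 4 and 0, beside 14.2% and 7.86% of all genes. By adjusted p alone 7 genes rose and 1 fell with LIF, where 42.2% of all genes rose and 25.9% fell. OSM-ESCs gave the same 7 and 1, beside 42.9% and 25.4%. The 9 genes had a median log2 fold change of 0.326 with LIF and 0.508 with OSM. When libraries were rescaled to a common median ratio over all genes, 6 rose and 2 fell with LIF, and 5 rose and 1 fell with OSM. Of all 18571 genes tested after rescaling, 6391 rose and 6171 fell with LIF, and 6374 and 6165 with OSM. The values come from the study's own libraries and are not independent evidence. For LIF-ESCs and OSM-ESCs the study had already displayed genes of DNA methylation.

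**Figure D1:**
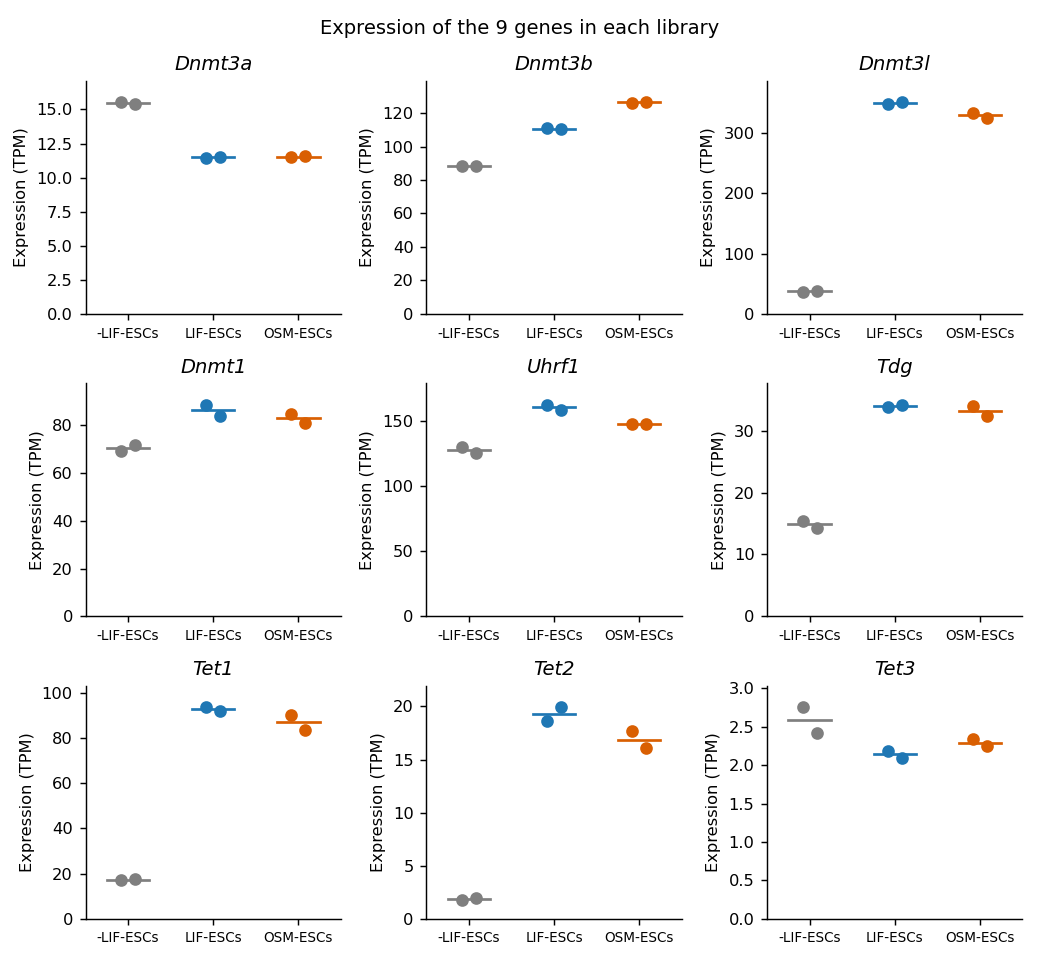
TPM (vertical axes, from 0) of each gene in the 2 libraries of -LIF-ESCs, LIF-ESCs and OSM-ESCs; points are libraries and short lines the mean of 2. Dnmt3l, Tet1, Tet2 and Tdg lie far lower without cytokine than in both cytokine groups, and Dnmt3a lies higher there.

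Among the de novo methylation genes, Dnmt3l, the regulatory subunit (chr10:78041947-78063622, GRCm38), had the widest range. Its TPM was 37.01 and 37.26 without cytokine, 348.1 and 350.8 with LIF, and 333.5 and 324.9 with OSM. The cytokine groups lay together and far above -LIF-ESCs, with no overlap. By limma the log2 fold change was 3.20 with LIF (SE 0.031, limma adjusted p = 9.81e-07), a TPM ratio of 9.41, and 3.11 with OSM (limma adjusted p = 9.19e-07), a ratio of 8.87. It stood 119th and 163rd from the top among the 18556 genes ordered by fold change. Dnmt3l shares 67 bases of exon (2.2%) with Aire on the opposite strand, a gene at 1.18 to 8.472 TPM, and the strand setting of the counting is not stated.

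Dnmt3b, the main de novo enzyme of early embryonic cells (chr2:153649450-153687730), rose by much less. Its TPM was 88.55 and 88.67 without cytokine, 111.2 and 110.2 with LIF and 126.3 and 126.5 with OSM. The 3 groups did not overlap, and OSM-ESCs were the highest. On the log2 scale the change was 0.32 with LIF (SE 0.03, limma adjusted p = 0.000399) and 0.51 with OSM (limma adjusted p = 7.32e-05). After median ratio rescaling it was 0.15 (limma adjusted p = 0.00919) and 0.32 (limma adjusted p = 0.000466).

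Dnmt3a, its paralog with the same activity (chr12:3806007-3914443), was the member that fell. It was at 15.53 and 15.41 TPM without cytokine, 11.43 and 11.54 with LIF, and 11.5 and 11.58 with OSM. Both cytokine groups lay below -LIF-ESCs and overlapped each other. The log2 fold change was -0.40 (SE 0.052, limma adjusted p = 0.00127) with LIF and -0.39 (limma adjusted p = 0.00134) with OSM.

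The balance of the de novo genes differed by medium. The TPM of Dnmt3b over that of Dnmt3a was 5.73 ± 0.0371 without cytokine, 9.64 ± 0.13 with LIF and 11.0 ± 0.0337 with OSM (mean ± SD, n = 2). Dnmt3l over the sum of Dnmt3a and Dnmt3b was 0.357 ± 0.00171 without cytokine, 2.86 ± 0.031 with LIF and 2.39 ± 0.0484 with OSM. Transcripts of the regulatory subunit were thus fewer than those of its catalytic partners without cytokine and more numerous with either. With 2 libraries a group an exact two-sided permutation test cannot go below p = 0.333, so ratios and shares are given with their spread and no test. TPM here divides by merged exon length, which is longer than the principal transcript by 1.72 times for Dnmt3a, 1.64 for Dnmt3l and 1.18 for Dnmt3b. With principal transcript lengths, a setting added after seeing the data, the Dnmt3l ratio was 0.464, 3.81 and 3.19 in the same order. Dnmt3b over Dnmt3a was then 3.94, 6.63 and 7.53.

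The maintenance genes moved little. Dnmt1, the maintenance methyltransferase (chr9:20907209-20959888), was at 69.12 and 71.89 TPM without cytokine, 88.66 and 83.88 with LIF and 84.92 and 81.09 with OSM. Its log2 fold change was 0.29 (SE 0.048, limma adjusted p = 0.00335) with LIF and 0.23 (limma adjusted p = 0.00753) with OSM. Relative to the median of all genes this left 0.12 and 0.05, and after median ratio rescaling neither passed (limma adjusted p = 0.0585 and 0.361).

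Uhrf1, which brings Dnmt1 to newly replicated DNA (chr17:56303321-56323486), was at 130.2 and 125.5 TPM without cytokine, 162.6 and 158.4 with LIF and 147.5 in each OSM-ESC library. By limma the log2 fold change was 0.33 (SE 0.035, limma adjusted p = 0.000616) with LIF and 0.20 (limma adjusted p = 0.00368) with OSM. The rise with OSM was lost after rescaling, with a log2 fold change of 0.02 (limma adjusted p = 0.659). Uhrf1 TPM over Dnmt1 TPM was 1.81 ± 0.0972, 1.86 ± 0.0385 and 1.78 ± 0.0578 (SD, n = 2) without cytokine, with LIF and with OSM. The libraries without cytokine overlap those of each cytokine, while those with LIF (1.83 and 1.89) lie just above those with OSM (1.74 and 1.82). The summed TPM of 12 replication and mitosis genes was 2229 to 2247, 2287 to 2296 and 2140 to 2209 in the same order. Of the 12, 6 rose and 4 fell with LIF, and 5 and 4 with OSM. Over all genes 42.2% rose and 25.9% fell with LIF, and 42.9% and 25.4% with OSM. After rescaling 4 of the 12 rose and 6 fell with LIF, and 4 and 7 with OSM. Of all 18571 genes tested then, 6391 rose and 6171 fell with LIF, and 6374 and 6165 with OSM.

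**Figure D2:**
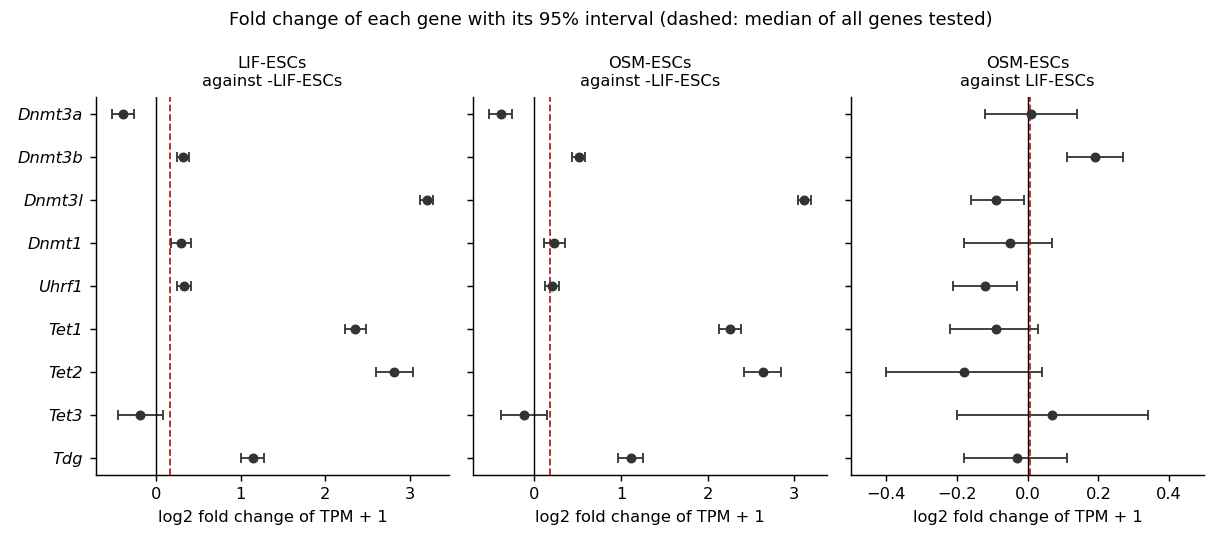
Log2 fold change of TPM + 1 with its 95% interval for each gene in the 3 comparisons; the red dashed line is the median of all 18556 genes tested, and the axis of OSM-ESCs against LIF-ESCs is narrower. Dnmt3l, Tet2, Tet1 and Tdg stand far to the right against -LIF-ESCs, and all 9 intervals against LIF-ESCs lie between -0.40 and 0.34.

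The Tet genes did not move as a family. Tet1, the main oxidase of mESCs (chr10:62804570-62908996), was at 17.19 and 17.54 TPM without cytokine, 93.55 and 91.82 with LIF and 90.13 and 83.44 with OSM. The groups with cytokine lay far above -LIF-ESCs. On the log2 scale the change was 2.35 (SE 0.049, limma adjusted p = 4.48e-06) with LIF and 2.26 (limma adjusted p = 4.65e-06) with OSM, TPM ratios of 5.34 and 5.0.

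Tet2, which lacks the CXXC DNA-binding domain that Tet1 carries (chr3:133463679-133545139), was at 1.738 and 2.007 TPM without cytokine, 18.6 and 19.94 with LIF and 17.66 and 16.07 with OSM. It passed from near the bottom of the expressed genes, above 18.9% of those tested, to above 62.5% with LIF. The log2 fold change was 2.82 (SE 0.086, limma adjusted p = 1.09e-05) with LIF and 2.64 (limma adjusted p = 1.24e-05) with OSM. The added 1 TPM understates changes of low genes, and the plain TPM ratios were 10.3 and 9.01, above the 9.41 and 8.87 of Dnmt3l.

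Tet3, the oxidase of the zygote (chr6:83362373-83459084), was at 2.756 and 2.42 TPM without cytokine, 2.19 and 2.098 with LIF and 2.336 and 2.252 with OSM. The cytokine libraries lay below those of -LIF-ESCs. By limma the log2 fold change was -0.19 (95% interval -0.46 to 0.08, limma adjusted p = 0.17) with LIF and -0.12 (-0.39 to 0.15, limma adjusted p = 0.353) with OSM. With 316 to 521 reads it was among the most thinly counted members. When the recovered reads were tested by limma's voom the differences passed, at -0.41 (adjusted p = 0.000881) and -0.31 (adjusted p = 0.00474).

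The summed TPM of the 3 Tet genes was 21.8 ± 0.197 without cytokine, 114.0 ± 0.341 with LIF and 106.0 ± 5.92 with OSM (SD, n = 2). The sum of Dnmt1, Dnmt3a and Dnmt3b moved from 175.0 ± 1.96 to 208.0 ± 4.04 and 221.0 ± 2.46. The Tet sum over the Dnmt sum was 0.125 ± 0.000271, 0.547 ± 0.00898 and 0.479 ± 0.0214 in the same order. Tet1 held most of the Tet sum, 79.6%, 81.2% and 81.9%. Tet2 and Tet3 changed places behind it. Tet2 went from 8.57% ± 0.792 without cytokine to 16.9% ± 0.882 with LIF and 15.9% ± 0.171 with OSM, while Tet3 went from 11.9% ± 1.2 to 1.88% ± 0.0512 and 2.17% ± 0.0649. The share of Dnmt3a in the Dnmt sum went from 8.86% ± 0.148 to 5.51% ± 0.144 and 5.22% ± 0.0822, and that of Dnmt3b from 50.8% to 53.1% and 57.2%. All these shares depend on the length used, and the merged exons of Tet3 are 2.81 times its principal transcript. With principal lengths Tet3 held 24.7%, 4.27% and 4.93%, and Tet1 63.6%, 70.6% and 71.4%. Tet2 then held 11.7%, 25.1% and 23.7%. In the Dnmt sum Dnmt3a then held 11.7%, 7.34% and 7.0%, and Dnmt3b 45.9%, 48.6% and 52.7%.

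**Figure D3:**
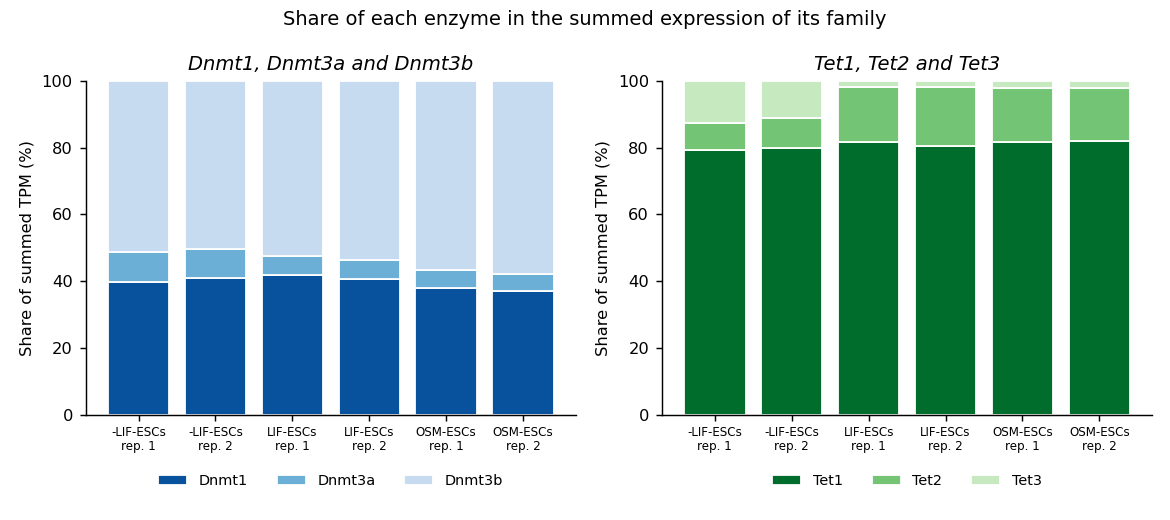
Share (%) of each gene in the summed TPM of Dnmt1, Dnmt3a and Dnmt3b (left) and of Tet1, Tet2 and Tet3 (right) in each of the 6 libraries, with merged exon lengths. Tet3 exceeds Tet2 in both -LIF-ESC libraries and shrinks to about 2% in the others.

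The order of the levels, per length, differed by medium. In -LIF-ESCs it ran Uhrf1, Dnmt3b, Dnmt1, Dnmt3l, Tet1, Dnmt3a, Tdg, Tet3 and Tet2, and the libraries of Dnmt3a and Tdg overlapped. In LIF-ESCs it ran Dnmt3l, Uhrf1, Dnmt3b, Tet1, Dnmt1, Tdg, Tet2, Dnmt3a and Tet3. OSM-ESCs had the same order as LIF-ESCs, with Tet1 and Dnmt1 overlapping between libraries. With principal transcript lengths Dnmt1, at 87.3 TPM with LIF, stood above Tet1, at 73.4, and without cytokine Tet1, at 13.9, stood below Dnmt3a, at 19.8, and Tdg, at 17.0. The places of these neighbours depend on the length used.

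Tdg, the glycosylase that removes oxidised methylcytosine (chr10:82629828-82650799), was at 15.45 and 14.34 TPM without cytokine, 33.76 and 34.2 with LIF and 34.06 and 32.32 with OSM. On the log2 scale the change was 1.14 (SE 0.056, limma adjusted p = 4.19e-05) with LIF and 1.11 (limma adjusted p = 4.43e-05) with OSM. This is just past the threshold for a call, and after median ratio rescaling it was 0.97 and 0.93.

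The call of Tdg also meets a near copy of the gene. Gm9855, a processed pseudogene at chr10:42054113-42055306, matches the principal Tdg transcript at 99.2% over 1194 bases. It was at 111.3 and 118.4 TPM without cytokine, 66.69 and 64.99 with LIF and 62.84 and 64.15 with OSM; it is named because of these values. Gm9855 thus fell where Tdg rose, with log2 fold changes of -0.79 (limma adjusted p = 5.98e-05) and -0.84 (limma adjusted p = 4.78e-05). In recovered reads per 1000000 reads of the library, Tdg alone was 37.6 and 34.6 without cytokine, 74.5 and 75.8 with LIF and 74.1 and 72.7 with OSM. Summed with Gm9855 and the other copies Gm5597 and Tdg-ps it was 98.9 and 98.7, 108.0 in each LIF-ESC library and 105.0 in each OSM-ESC library, ratios of 1.09 and 1.07. In the fit with near copies summed, Tdg rose by a log2 fold change of 0.26 (SE 0.038, limma adjusted p = 0.00216) with LIF and 0.22 (limma adjusted p = 0.00388) with OSM, and was no longer called. How reads that match several places were handled is not stated, and its part in the Tdg values was not tested. Of the other members, Dnmt3b and Uhrf1 had near copies at 90% identity or more, Dnmt3c at up to 1.15 TPM and Gm5648 at up to 1.26 TPM. Tdg also shares 367 bases of exon (6.8%) with Glt8d2 on the opposite strand, at no more than 0.382 TPM.

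**Figure D4:**
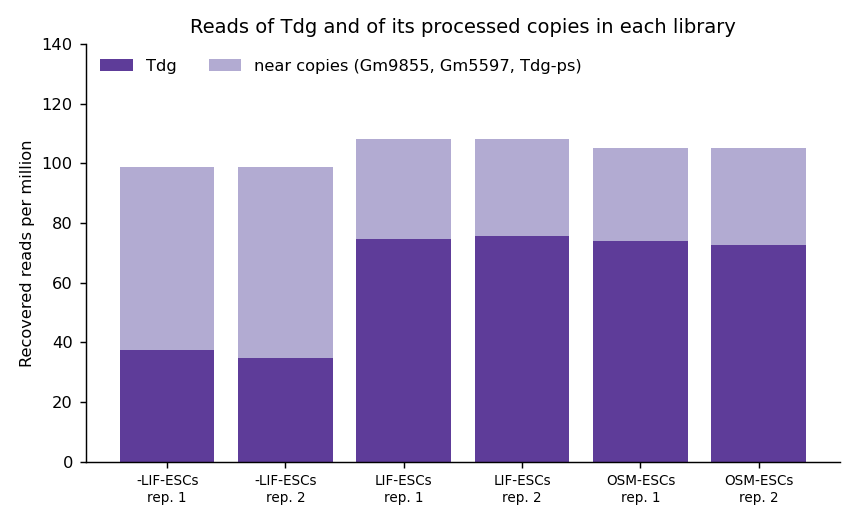
Recovered reads of Tdg per 1000000 reads of the library (dark) and of Gm9855, Gm5597 and Tdg-ps together (light), stacked, in each of the 6 libraries. The dark part is about 2 times as tall in the cytokine groups, whereas the whole bar differs by 1.09 and 1.07 times.

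OSM-ESCs and LIF-ESCs were close for every member, with differences between -0.18 and 0.19 on the log2 scale. None of the 9 was called (0.0808% of all genes were) and none had an adjusted p under 0.05 (0.593% of all genes did). At an unadjusted p under 0.05, 3 of the 9 passed, Dnmt3b, Uhrf1 and Dnmt3l, where 15.3% of all genes did. Dnmt3b was higher in both OSM-ESC libraries by a log2 fold change of 0.19 (95% interval 0.11 to 0.27, limma adjusted p = 0.0776). Uhrf1 differed by -0.12 (-0.21 to -0.03, limma adjusted p = 0.213) and Dnmt3l by -0.09 (-0.16 to -0.01, limma adjusted p = 0.292), both lower in each OSM-ESC library. Among the epigenetic genes it displayed, the study named Dnmt3b and Dnmt3l as the exceptions that differed significantly between these groups. Neither passed after adjustment in the main fit here, which used TPM. Tet1 differed by -0.09 (-0.22 to 0.03) and Tet2 by -0.18 (-0.40 to 0.04). Dnmt1 at -0.05 (-0.18 to 0.07), Dnmt3a at 0.01 (-0.12 to 0.14) and Tdg at -0.03 (-0.18 to 0.11) overlapped between the groups. Tet3 was at 0.07 (-0.20 to 0.34). The widest intervals, of Tet2 and Tet3, still allow a log2 difference of 0.40 and 0.34. On recovered reads limma's voom passed 4 members, Dnmt3b at 0.19 (adjusted p = 0.000637), Uhrf1 at -0.12 (adjusted p = 0.0336), Tet1 at -0.10 (adjusted p = 0.0345) and Tet2 at -0.19 (adjusted p = 0.0111), where it passed 7.85% of all genes. Of the 12 fibroblast markers 5 rose with OSM relative to LIF-ESCs, but 0 passed under a replicate block, with the groups compared alone, without the eBayes trend or with any of the 6 libraries left out, and 10 under voom. Their part in these differences was not tested.

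Other genes of the pathway were described from lists. Their counts by adjusted p stand beside 42.2% of all genes higher and 25.9% lower with LIF, and 42.9% and 25.4% with OSM. After median ratio rescaling, 6391 of 18571 genes rose and 6171 fell with LIF, and 6374 and 6165 with OSM. Of 23 cofactors and targeting factors of DNA methylation, 11 rose, 7 fell and 5 did not pass with LIF against -LIF-ESCs, and 11, 6 and 6 with OSM. Their median log2 fold change was 0.151 and 0.147, close to that of all genes. After median ratio rescaling 9 rose and 10 fell with LIF, and 9 and 11 with OSM. Zfp57, a zinc finger protein that keeps methylation at imprinted loci, was called higher at 2.16 and 2.06 (TPM 31.14 and 32.5 without cytokine, 147.9 and 143.4 with LIF, 134.7 and 136.2 with OSM). Zfp445, which acts at imprinted loci too, was called at 1.24 and 1.22, and Nsd1, a histone H3 lysine methyltransferase, at 1.13 and 1.18, though after rescaling Nsd1 was at 0.96 and no longer called with LIF. Dppa3, which limits Uhrf1 at chromatin, was called lower at -1.41 and -1.31 (TPM 100.5 and 108.2 without cytokine, 36.57 and 40.76 with LIF, 44.05 and 39.19 with OSM). Mael, a piRNA pathway protein, at -1.38 and -1.45, and Cdca7l, a relative of the Hells partner Cdca7, at -1.22 and -1.28, were called lower too.

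Of 10 methyl-CpG binding proteins, 9 rose and 0 fell in each cytokine group, with median log2 fold changes of 0.592 and 0.647. After rescaling 6 rose and 0 fell in each. Zbtb4, a zinc finger protein that binds methylated DNA, was the only gene of this list called, at 1.31 and 1.66. Its TPM was 1.121 and 0.8738 without cytokine, 4.176 and 3.715 with LIF and 5.292 and 5.333 with OSM.

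Of the Tet partners and base excision repair genes 18 were tested, and Cxxc4 stayed under the filter. In LIF-ESCs 7 rose and 7 fell, and with OSM 7 rose and 8 fell, with medians of 0.008 and -0.144. After rescaling these were 7 and 9, and 7 and 10. Ogt, the O-GlcNAc transferase that binds Tet proteins, was called higher at 1.71 and 1.56, from 21.84 and 23.87 TPM without cytokine to 77.66 and 76.42 with LIF and 70.84 and 67.38 with OSM. Gadd45a, a stress protein linked to demethylation, was called higher at 2.11 in each, and Apobec1, a cytidine deaminase, at 1.71 and 1.73. Apex1, the abasic site endonuclease that acts after Tdg, was called higher at 1.19 and 1.15, which were 1.02 and 0.97 after rescaling, so that the call with OSM was lost. Gadd45b, a paralog of Gadd45a, was called lower at -2.87 and -2.54, from 97.72 and 100.0 TPM without cytokine to 11.14 and 14.44 with LIF and 16.32 and 16.14 with OSM. Idh1, which makes the Tet cosubstrate alpha-ketoglutarate in the cytosol, was called lower at -1.78 and -1.88. Against LIF-ESCs, Gadd45g was the only gene of these 3 lists that passed, higher with OSM by 0.76 (SE 0.06, limma adjusted p = 0.0296), at 44.81 and 46.53 TPM beside 25.44 and 27.69. It did not pass under a replicate block (adjusted p = 0.134), with the groups compared alone (0.088), without the eBayes trend (0.0764) or with any of the 6 libraries left out (0.102 to 0.239). Against -LIF-ESCs it was called with OSM at 1.17, which was 0.99 after rescaling.

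**Figure D5:**
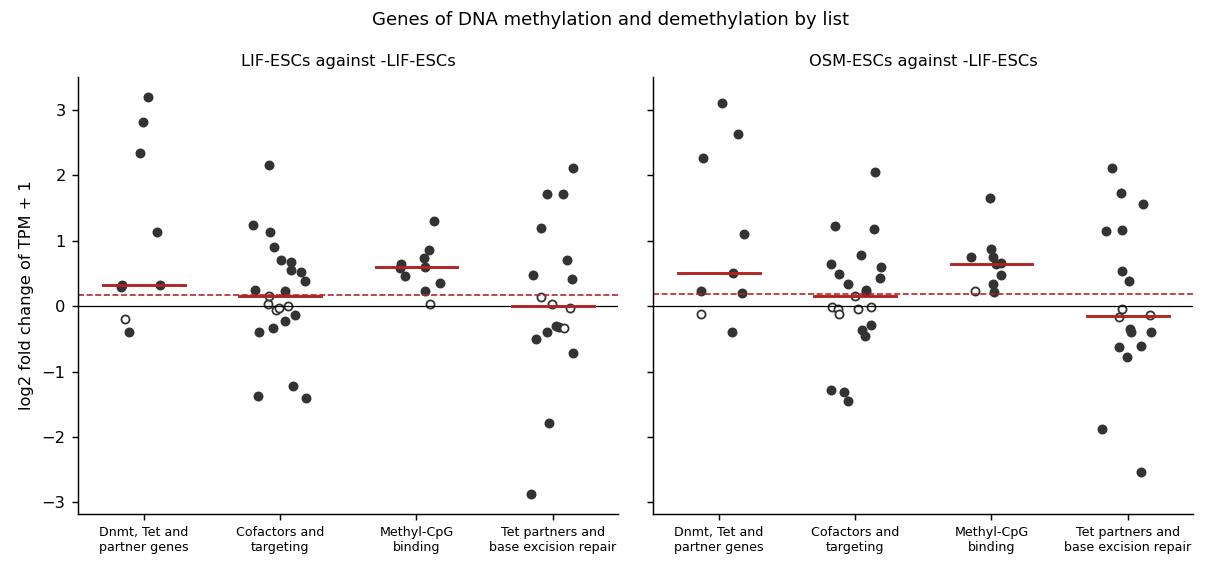
Log2 fold change of TPM + 1 against -LIF-ESCs for each gene of the 4 lists, with LIF (left) and with OSM (right); filled points have an adjusted p under 0.05, solid red lines are list medians and the dashed line the median of all genes tested. The methyl-CpG binding proteins lie at or above 0, with medians of 0.592 and 0.647, and the other lists spread to both sides.

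The genes whose pattern over the 6 libraries lay nearest to each called member were found by the Euclidean distance between centred log2(TPM + 1) values, among 10953 candidates. For Dnmt3l these were Epha2, an ephrin receptor (distance 0.0593, means of 32.7, 303.0 and 294.0 TPM without cytokine, with LIF and with OSM), and Inhbb, an activin subunit (0.137). For Tet1 they were Etv4, an ETS factor (0.101, means of 13.6, 75.0 and 70.1 TPM), and Zfp534 (0.119). For Tet2 they were Enox1 (0.0514, means of 1.83, 19.1 and 16.7 TPM) and Arid5b (0.161). For Tdg they were Atf6, a sensor of endoplasmic reticulum stress (0.0503, means of 11.0, 25.6 and 25.2 TPM), and Angptl6 (0.059). With 2 libraries a group such likeness rests mainly on the 3 group means.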

How the data were processed

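RNA-seq was analysed from 6 libraries of mESCs, 2 each of -LIF-ESCs, LIF-ESCs and OSM-ESCs. The authors purified polyA RNA, trimmed reads (Trimmomatic), aligned them to mm10 (HISAT2), counted them per gene (featureCounts) and deposited TPM per gene as 1 table. Which annotation and strand setting were used, how reads with several matches were treated and how counts became TPM are not given in the sources used here. The authors tested counts with DESeq2, which was not repeated here.

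Genes were compared as log2(TPM + 1) by limma 3.58.1 in R 4.3.3 (all 3 groups in 1 fit, eBayes with a trend, 3 residual degrees of freedom, 5.3 with the prior), with Benjamini-Hochberg adjustment over the 18556 genes that reached 1 TPM in 2 or more libraries. The study calls its 2 libraries a group biological replicates, and nothing says whether they were separate cultures throughout, so p-values measure the spread between these libraries. Reads were recovered from TPM and merged exon lengths from GENCODE M21 (GRCm38), which held 28405 of the symbols (99.4%) exactly 1 time. Within a tolerance of 0.02 read, 95.4% of these values were whole. Near copies were found with blastn as annotated transcripts at least 90% identical over at least 200 bases. All members were named, as were listed genes that were called and reached 5 TPM in a group mean (at most 4 higher and 4 lower per list and comparison) and the 2 nearest patterns of each called member. Gm9855 and the other near copies of Tdg, Gm5597 and Tdg-ps, were named after their values were seen. The members, lists and tests were chosen with earlier results of these data known. 1 listed gene is not reported here. The fit was tested on simulated data. As alternatives, the pseudocount was set to 0.1, the filter was dropped or raised to 5 TPM, the eBayes trend was left out, and the fit was limited to the groups compared. Others were a replicate block, median ratio rescaling, removal of the 37 mitochondrial genes, limma's voom on recovered reads and each replicate left out. Summing near copies and principal transcript lengths were added after seeing the data. All 9 members had a RefSeq promoter. Python 3.11.15 (pandas 2.3.3, numpy 2.4.6, matplotlib 3.10.9) was used for tables and plots.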

Additional observations from a re-analysis of the deposited data

How the results depend on the processing

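Against -LIF-ESCs the members called numbered 3 to 4 of 9 in each comparison under every alternative run, and Tdg was the member lost, under median ratio rescaling and with near copies summed. With each library left out in turn, the log2 fold change with LIF was 3.19 to 3.21 for Dnmt3l and 2.34 to 2.36 for Tet1. For Tet2 it was 2.75 to 2.89 and for Tdg 1.09 to 1.19. With OSM these ranges were 3.1 to 3.13, 2.2 to 2.31, 2.57 to 2.7 and 1.06 to 1.16 in the same order. Rescaling left 8 and 6 members with an adjusted p under 0.05 against -LIF-ESCs, where 67.6% and 67.5% of all genes passed. Tet3 passed under rescaling in LIF-ESCs (-0.31, adjusted p = 0.0421), and Uhrf1 in OSM-ESCs did not pass under voom (0.07, adjusted p = 0.0762). The filter of 5 TPM left 8 members, without Tet3. For OSM-ESCs against LIF-ESCs, voom on recovered reads gave 4 members with an adjusted p under 0.05 instead of 0, and 1446 genes in all instead of 110. The cause was not tested. The difference of Dnmt3a between OSM-ESCs and LIF-ESCs turned from 0.01 to -0.01 under rescaling and to -0.0 without LIF-ESCs replicate 1, and that of Tdg ranged from -0.07 to 0.0 as single libraries were left out, with 0.0 without OSM-ESCs replicate 2. Replicate numbers are shared between groups in the labels. The deviations of same-numbered libraries correlated at -0.043, -0.023 and 0.027 over all genes, so no general pairing by number was seen. With 2 libraries a group this cannot exclude a pairing that acts on few genes. With a replicate block 4, 4 and 0 members were called. An adjusted p under 0.05 was reached by 8, 8 and 0, beside 65.9%, 66.2% and 0.0% of all genes. Over all genes OSM-ESCs against LIF-ESCs gave 0 instead of 110. That count was also 0 with the groups compared alone and 0 or 1 with a library left out. Tet2 and Tet3, at 315 and 316 reads in their lowest libraries, are the members whose precision depth limits most against -LIF-ESCs.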
